A study of Homo sapiens with 3 samples.

Results

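The axon guidance ligands and receptors are the genes of the semaphorin, plexin, neuropilin, ephrin, Eph, Slit, Robo, netrin, UNC5 and DCC families, chosen by symbol from the platform annotation of an Illumina expression array. The symbols matched 68 of 20046 named genes on the array, read by 112 probes, and 0 Y-linked genes had to be left out. Of these, 45 members had a detection p-value under 0.01 on at least 1 array at their brightest probe and are called above background here. The arrays came from 293T cells, a human embryonic kidney line that carries the SV40 large T antigen, after knockdown of TARBP2, the double-stranded RNA binding partner of DICER1. The 3 samples were 293T cells transfected by lipid reagent with siTARBP2-1, with siTARBP2-2 or with siControl, 1 array each, and total RNA was taken 48 h later. The series design calls the control cells mock-transfected, while the sample labels name siControl. No label says whether the samples came from separate cultures, so any spread between them may be technical.

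Guidance molecules steer growing axons and migrating cells by contact or from a distance. Semaphorins act through plexins, with neuropilins as co-receptors for most secreted class 3 semaphorins. Ephrins on one cell bind Eph receptor tyrosine kinases on its neighbour and can signal in both directions. Slits repel through Robo receptors, and netrins attract through DCC or repel through UNC5 receptors. Outside the nervous system the same families act in vessel and kidney development, and neuropilins also bind VEGF.

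The targeted gene was checked first. The log2 normalized signal of TARBP2 was 6.27 with siTARBP2-1, 6.09 with siTARBP2-2 and 8.38 in the control, so both siRNA arrays lay below control. Raw signal averaged 680.4, 514.3 and 528.5 over 47323 probes, and 19155, 18449 and 18968 probes were above background, in the same order. Of 8 markers of 293T cells, 7 were above background on at least 1 array (KRT8, KRT18, VIM, CDH2, NEFL, NEFM and INA), and PAX2 was not. Of 6 markers of other cell types, PTPRC, CD3E, PECAM1 and HBA1 were not above background, while COL1A1 and ALB were. COL1A1 read 6.14 in the control and 6.35 and 6.51 with siTARBP2-1 and siTARBP2-2. ALB read 5.65 in the control and was not above background on either siRNA array; its part in the results below was not tested. In such bulk RNA, fewer cells of a kind and less RNA per cell cannot be told apart.

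Among the members, the widest differences were on the siTARBP2-2 array: EFNA1, the ephrin-A1 ligand, was 2.61-fold above control, NRP1, the neuropilin co-receptor, was 2.33-fold below, and UNC5A, a netrin receptor, was at least 1.93-fold above. With siTARBP2-1 the same genes were 1.10-fold above control, 0.34 log2 units below (-0.34) and at least 1.25-fold above. "At least" marks a gene whose signal on one array was not above background. Its fold is then taken against the higher of its own reading there and the lowest reading of any detected probe on that array (5.25, 5.38 and 5.29 for siTARBP2-1, siTARBP2-2 and control). Such a bound holds only for the processing used here. Under other settings the UNC5A difference with siTARBP2-2 fell as low as 0.65 log2 units. By a rule of size of 1.5-fold, with 1 array on each side and no replicate check, 6 of the 45 members were higher with siTARBP2-1 (SEMA3F, SEMA4A, SEMA4G, PLXND1, EPHA8 and UNC5A) and 0 were lower. Over all 11768 genes tested, 1.26% were higher and 1.36% lower. Of the 6, the 3 that also passed as a bound were SEMA4A, SEMA4G and EPHA8. With siTARBP2-2, 8 members were higher (SEMA4A, PLXNA2, PLXND1, EFNA1, EPHA6, EPHA8, NTN1 and UNC5A) and NRP1 was lower, where 5.27% and 4.88% of all genes were. Of the 8, the 5 that also passed as a bound were SEMA4A, EFNA1, EPHA8, NTN1 and UNC5A, and NRP1 was measured on all arrays. Both comparisons share the single control array, so a low or high reading there enters both.

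Several of these calls were of probes not above background on every array, kept through the arrays that read high, so their share cannot be set against other genes. Of the 45 members, 33 were above background on all 3 arrays. Among those 33, only EPHA8 was higher with siTARBP2-1 (0.685% of the 10798 such genes were) and 0 were lower (0.954%). With siTARBP2-2, 3 of the 33 were higher (EFNA1, EPHA8 and NTN1), where 4.44% of the 10798 genes were, and 1 was lower (NRP1), where 4.3% were. The median difference of the 33 was -0.04 with siTARBP2-1, beside 0.00 over the 10798 genes, and 0.28 with siTARBP2-2, beside 0.03. On the siTARBP2-2 array 24 of the 33 members read above control (72.7%), against 54.3% of the 10798 genes, and on the siTARBP2-1 array 15 of 33 did (45.5% against 50.5%). These are descriptions of single arrays, with no test of the list. Without background correction, with a larger offset or with the authors' processed values, the count of members higher with siTARBP2-1 was 0, and that with siTARBP2-2 was 3.

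**Figure D1:**
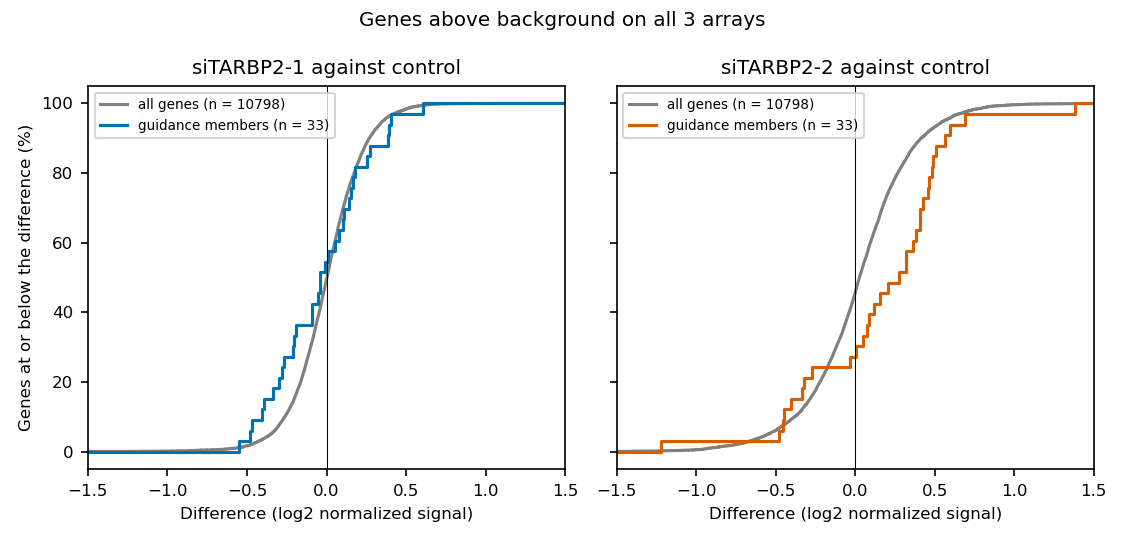
Cumulative share of genes (vertical axis, percent) at or below each difference from control (horizontal axis, log2 normalized signal), for the 33 guidance members and the 10798 genes above background on all 3 arrays. With siTARBP2-1 the medians are close (-0.04 against 0.00), while the lower quartile of the members is lower (-0.27 against -0.13) and the upper is similar (0.16 against 0.14). With siTARBP2-2 the members lie to the right (median 0.28 against 0.03).

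By the test over all 11768 genes, knockdown against control in limma with both siRNA arrays as the knockdown group, 0 of 45 members passed (0% of all genes did; Benjamini-Hochberg adjusted p = 0.99991 for each member). At an unadjusted p under 0.05 there were 5 members, all higher (EPHA6, EPHA8, PLXND1, SEMA4A and UNC5A), where 0.858% of all genes were higher at that level; 0 members were lower, where 0.875% of genes were. In all of the 5 except EPHA8 the control signal was not above background. Those members were kept only through the siRNA arrays, where they read high. The count therefore cannot be set against the share of all genes. With a trended and robust variance prior 0 members passed (0.0085% of all genes did), and 2 had an unadjusted p under 0.05 (NRP1 and UNC5A; 1.54% of all genes did). The test has 1 residual degree of freedom beside 6.78 prior ones, so each error combines the gap between the siRNA arrays with the spread over all genes. TARBP2 itself, with a mean difference of -2.21, did not pass adjustment in this test. A member that did not pass is therefore not shown to be unchanged.

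**Figure D2:**
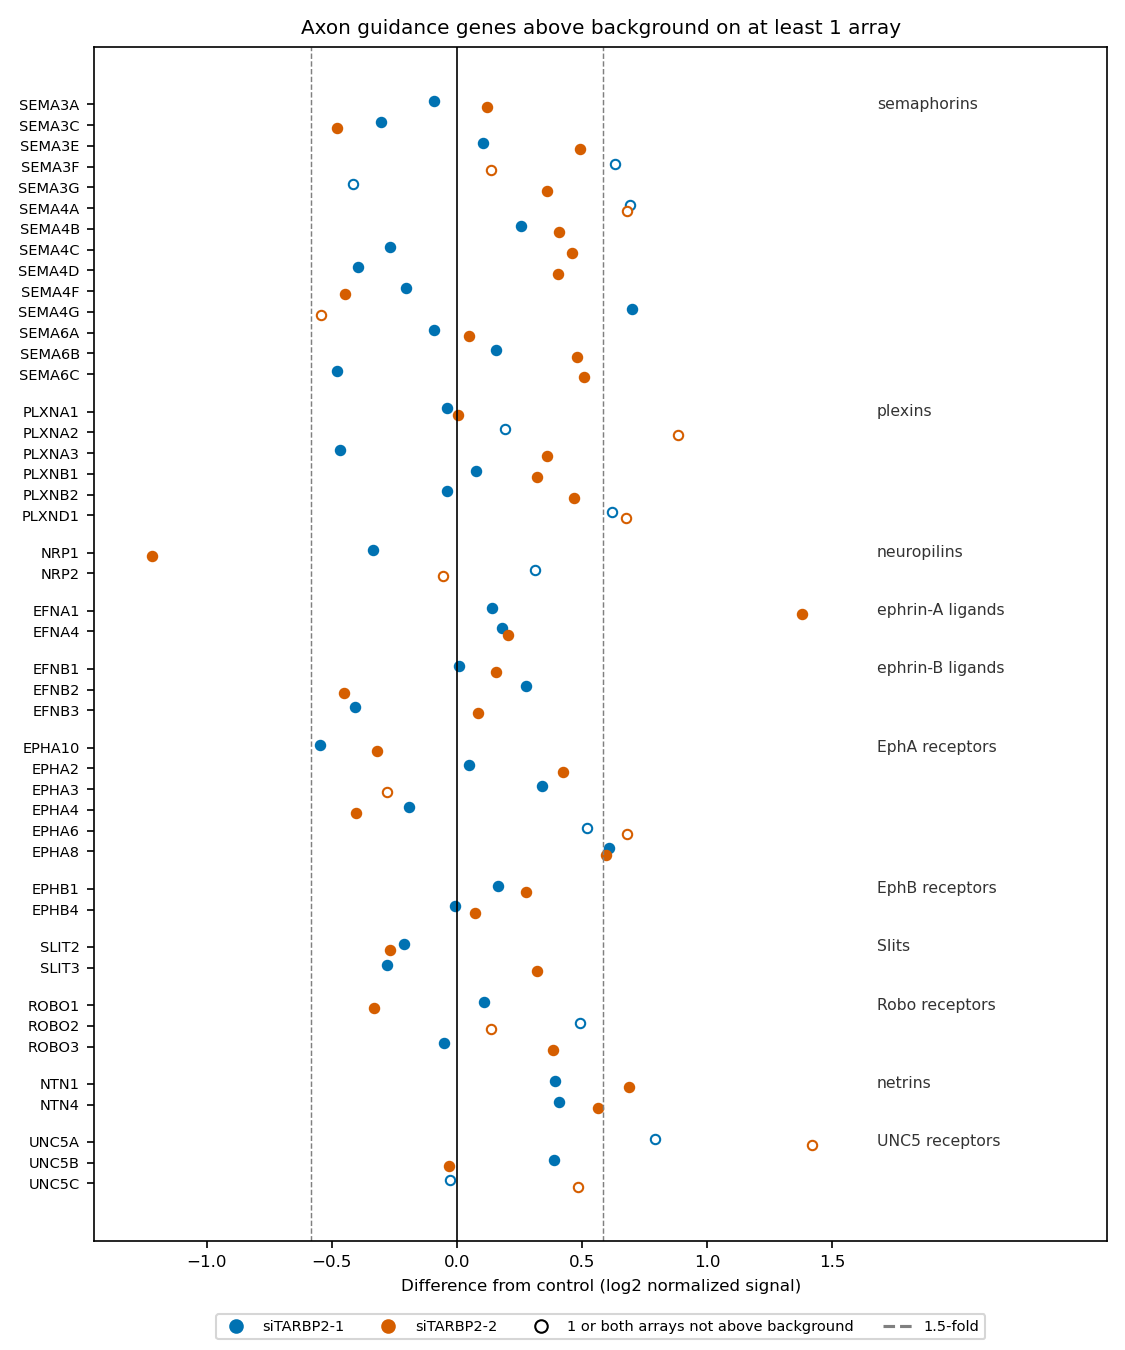
Difference from control (horizontal axis, log2 normalized signal) of the 45 members above background on at least 1 array, grouped by family, with siTARBP2-1 in blue and siTARBP2-2 in orange. Each point is 1 array against the 1 control array, open points rest on a signal not above background, and dashed lines mark 1.5-fold; of the filled points the farthest are EFNA1 (1.38) and NRP1 (-1.22) with siTARBP2-2, and the open point of UNC5A (1.42) has a bound of 0.95.

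Some members that were higher by 1.5-fold on at least 1 siRNA array and have a single listed start are shown with the 250 bases before that start, so that the promoters of the ligand and the receptors can be compared. Of those shown, only EFNA1 was above background in the control, and PLXND1 and PLXNA2 did not pass 1.5-fold as a bound. The sequences are from RefSeq (GRCh38.p14), 5′ to 3′ on the gene's strand. EFNA1 lies at chr1:155127626-155127875 (+), UNC5A at chr5:176810309-176810558 (+), PLXND1 at chr3:129606677-129606926 (-) and PLXNA2 at chr1:208244385-208244634 (-). Capitals mark GGGCGG or, read from the other strand, CCGCCC, the core of the GC box bound by SP-family factors.
EFNA1: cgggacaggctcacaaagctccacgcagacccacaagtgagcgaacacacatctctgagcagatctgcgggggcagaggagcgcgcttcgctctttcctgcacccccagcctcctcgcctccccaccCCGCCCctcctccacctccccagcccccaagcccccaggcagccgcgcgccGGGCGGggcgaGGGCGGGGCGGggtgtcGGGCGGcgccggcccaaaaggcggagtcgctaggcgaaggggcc
UNC5A: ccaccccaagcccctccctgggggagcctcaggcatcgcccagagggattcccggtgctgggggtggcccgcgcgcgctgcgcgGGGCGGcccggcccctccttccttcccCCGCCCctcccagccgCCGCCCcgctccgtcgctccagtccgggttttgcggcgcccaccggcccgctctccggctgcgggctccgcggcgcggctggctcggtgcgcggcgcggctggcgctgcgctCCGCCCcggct
PLXND1: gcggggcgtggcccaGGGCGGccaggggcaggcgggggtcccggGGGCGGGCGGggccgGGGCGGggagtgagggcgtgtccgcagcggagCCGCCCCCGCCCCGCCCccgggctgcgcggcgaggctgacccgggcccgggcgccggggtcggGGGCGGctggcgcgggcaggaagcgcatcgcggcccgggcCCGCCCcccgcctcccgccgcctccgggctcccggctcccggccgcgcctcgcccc
PLXNA2: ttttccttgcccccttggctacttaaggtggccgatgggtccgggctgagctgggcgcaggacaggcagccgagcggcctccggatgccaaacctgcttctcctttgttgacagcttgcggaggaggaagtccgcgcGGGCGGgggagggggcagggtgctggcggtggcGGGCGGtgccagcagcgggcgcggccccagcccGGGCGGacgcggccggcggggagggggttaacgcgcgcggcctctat
All of them are rich in G and C, from 72.4% in PLXNA2 to 88.8% in PLXND1. GC box letters occur 5 times in EFNA1, 4 in UNC5A, 9 in PLXND1 and 3 in PLXNA2, with overlapping matches counted. None of them holds the CCAAT box, the TATA box (letters TATAAA) or the E box (letters CACGTG) on either strand. Over 35116 promoters of this length 42.6% hold the GC box letters, 32.0% the CCAAT box, 10.7% the TATA box and 6.34% the E box. For the members above background, 55 promoters of 37 genes matched, and 37 of these 55 hold the GC box letters (67.3%), 19 the CCAAT box, 2 the TATA box and 3 the E box. The 35116 promoters were not limited to genes above background, so the sets are not alike. A match describes these letters and does not show binding.

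**Figure D3:**
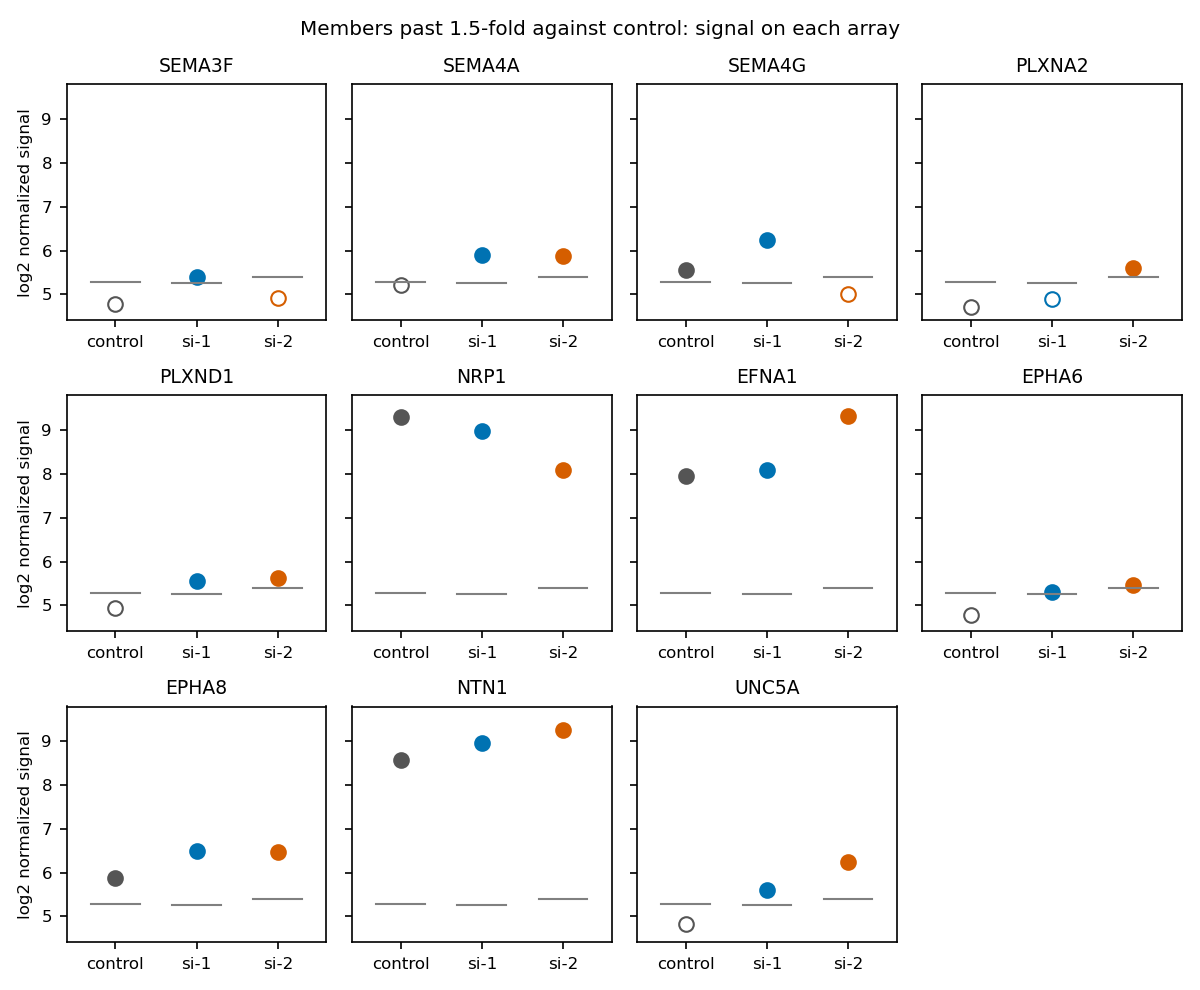
Log2 normalized signal (vertical axis) on the control array and the arrays of siTARBP2-1 (si-1) and siTARBP2-2 (si-2) for the 11 members past 1.5-fold against control with at least 1 siRNA. Grey bars are the lowest signal of any detected probe on that array and open points are not above background; EFNA1, NRP1, NTN1 and EPHA8 stand clear of the bars on all 3 arrays.

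Of 20 semaphorins on the array, 14 were above background, 10 of them on all 3 arrays. SEMA4A, a membrane semaphorin with roles in immunity and the retina, read 5.89 with siTARBP2-1, 5.88 with siTARBP2-2 and 5.20, not above background, in the control. Both siRNA arrays were high by nearly the same amount, at least 1.52-fold and at least 1.51-fold. With the authors' processed values the differences were smaller, 0.32 and 0.31 log2 units, within 1.5-fold. The mean difference in limma was 0.69 ± 0.25 (moderated SE, n = 2 arrays against 1). SEMA3F, a secreted repellent that binds NRP2, read 5.40 with siTARBP2-1 and was not above background with siTARBP2-2 (4.90) or in the control (4.77). It was at least 1.08-fold higher with siTARBP2-1, and no fold can be given for siTARBP2-2.

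A further set of semaphorins read on opposite sides of control on the 2 siRNA arrays. SEMA6C, a class 6 transmembrane semaphorin, read 6.31 with siTARBP2-1, 7.30 with siTARBP2-2 and 6.79 in the control. SEMA4D, the ligand of PLXNB1, read 8.98, 9.78 and 9.37 in the same order. SEMA4C, a ligand of PLXNB2, read 5.82, 6.55 and 6.09. In each of these the siTARBP2-1 array was lowest, the siTARBP2-2 array highest and the control between them, so that their mean differences were 0.01 ± 0.39, 0.01 ± 0.35 and 0.10 ± 0.33 (moderated SE, n = 2 against 1). SEMA3G, a class 3 semaphorin, had the same order, at 5.09 (not above background), 5.87 and 5.51. The siTARBP2-2 array was at least 1.53-fold above the siTARBP2-1 array for it.

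SEMA4G was the one semaphorin past 1.5-fold whose probes disagreed. At its brighter probe it read 6.25 with siTARBP2-1, 5.0005 (not above background) with siTARBP2-2 and 5.55 in the control. At the other probe it read 5.46, 6.01 and 5.13 (not above background) in the same order. So the siTARBP2-2 array was the low one at the first probe and the high one at the second. The siTARBP2-1 array was above control at both probes. The other 7 semaphorins above background (SEMA3A, SEMA3C, SEMA3E, SEMA4B, SEMA4F, SEMA6A and SEMA6B) stayed within 1.5-fold. They ran from -0.30 (SEMA3C) to 0.26 (SEMA4B) with siTARBP2-1 and from -0.48 (SEMA3C) to 0.49 (SEMA3E) with siTARBP2-2.

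Of 9 plexins, the signalling receptors of semaphorins, 6 were above background. PLXND1, which SEMA3E binds without a neuropilin, read 5.56 with siTARBP2-1, 5.62 with siTARBP2-2 and 4.94, not above background, in the control. It was at least 1.21-fold and at least 1.26-fold higher. SEMA3E itself read 7.79, 8.17 and 7.68. PLXNA2, a receptor of SEMA6A, was above background only with siTARBP2-2, at 5.59, and read 4.90 with siTARBP2-1 and 4.71 in the control, at least 1.24-fold higher with siTARBP2-2. Its other probe was not above background on any array.

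PLXNA3, a receptor for complexes of class 3 semaphorins and neuropilins, had the order seen for SEMA6C and SEMA4D, with 7.25, 8.08 and 7.72 for siTARBP2-1, siTARBP2-2 and control. It was 1.78-fold higher with siTARBP2-2 than with siTARBP2-1. PLXNA1, PLXNB1 and PLXNB2 lay within 1.5-fold of control, from -0.04 to 0.08 with siTARBP2-1 and from 0.01 to 0.47 with siTARBP2-2. The highest of these was PLXNB2, at 0.47 with siTARBP2-2.

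NRP1 was the only member lower by 1.5-fold on either siRNA array. It read 8.98 with siTARBP2-1, 8.09 with siTARBP2-2 and 9.32 in the control, above background on all arrays. The siTARBP2-2 array was low by 1.22 log2 units (-1.22) and the siTARBP2-1 array lay between it and the control. The mean difference was -0.78 ± 0.37 (moderated SE, n = 2 against 1), and over 7 settings, the one used here included, it was -1.31 to -0.76 with siTARBP2-2. With siTARBP2-1 it was -0.34 to 0.01, so its sign against control did not hold in all of them. The value of 0.01 was with equal array medians, where the median of all genes with siTARBP2-1 was 0.31. The second NRP1 probe was also below control on both siRNA arrays but by less, at -0.23 and -0.29. NRP2, the other neuropilin, was above background only with siTARBP2-1 at its brighter probe, at 5.57 against 5.20 and 5.26, and its next probe differed by -0.05 and -0.10.

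Ephrin-A ligands are tethered by a lipid anchor. Of 5 on the array, EFNA1 and EFNA4 were above background. EFNA1 read 8.09 with siTARBP2-1, 9.33 with siTARBP2-2 and 7.95 in the control. The siTARBP2-2 array stood alone, 1.38 log2 units above control, and its second probe gave the same pattern, with 5.48, 6.28 and 5.45. The mean difference was 0.76 ± 0.46 (moderated SE, n = 2 against 1), and with siTARBP2-2 it ran from 1.11 to 1.38 over the same 7 settings. EFNA4 read 7.11, 7.13 and 6.93 in the same array order, with both siRNA arrays above control by 0.18 and 0.20.

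Ephrin-B ligands span the membrane, and all 3 were above background on every array. EFNB2, the ligand of EPHB4 in vessels, read 9.87 with siTARBP2-1, 9.15 with siTARBP2-2 and 9.60 in the control. The control lay between the siRNA arrays, and siTARBP2-1 was 1.66-fold above siTARBP2-2. EFNB1 differed from control by 0.01 and 0.15, and EFNB3 by -0.41 and 0.09.

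Of 9 EphA receptors, 6 were above background. EPHA8 was the one member above background on all arrays that was higher by 1.5-fold with each siRNA. It read 6.48 with siTARBP2-1, 6.47 with siTARBP2-2 and 5.87 in the control, 1.53-fold and 1.51-fold higher. The mean difference was 0.60 ± 0.25 (moderated SE, n = 2 against 1), with an unadjusted p of 0.0417 in limma that did not pass adjustment over all genes (adjusted p = 0.99991). Both EPHA8 probes were above control, the second by 0.43 and 0.25. The difference was smaller with the authors' processed values, 0.36 and 0.35.

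EPHA6 read 5.30 with siTARBP2-1 and 5.46 with siTARBP2-2, barely above background, and 4.78 in the control, not above it. This gave at least 1.01-fold and at least 1.12-fold, and none of its other 5 probes was above background. EPHA3 read 5.96, 5.34 (not above background) and 5.62, at least 1.49-fold higher with siTARBP2-1 than with siTARBP2-2. EPHA2, a receptor of EFNA1, differed by 0.05 and 0.43, EPHA4 by -0.19 and -0.40 and the kinase-inactive EPHA10 by -0.55 and -0.32. The 3 probes of EPHA10 above background did not share a sign.

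EphB receptors bind mainly ephrin-B ligands. Of 4 with probes, 2 were above background, and both lay near control. EPHB1 read 7.99 with siTARBP2-1, 8.10 with siTARBP2-2 and 7.83 in the control, a mean difference of 0.22 ± 0.25 (moderated SE, n = 2 against 1). EPHB4, the receptor of EFNB2, read 9.32, 9.40 and 9.33, a mean difference of 0.03 ± 0.25. Both mean differences were within 1 SE of 0. EPHB2 was not analysed here.

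Of the Slits, SLIT2 and SLIT3 were above background on all arrays and SLIT1 on none. SLIT2 read 8.62 with siTARBP2-1, 8.56 with siTARBP2-2 and 8.83 in the control, with both siRNA arrays below control by similar amounts (-0.21 and -0.27). SLIT3 read 6.01, 6.61 and 6.29, with the control between the siRNA arrays. Among the Robo receptors, ROBO1 differed by 0.11 and -0.33 and ROBO3, known from commissural axons, by -0.05 and 0.38. ROBO2 was above background only with siTARBP2-1, at least 1.10-fold higher than control.

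Netrins and their UNC5 receptors held several of the higher readings. NTN1, the founding ligand of DCC and UNC5 receptors, read 8.97 with siTARBP2-1, 9.27 with siTARBP2-2 and 8.58 in the control. Both siRNA arrays were above control, by 0.39 and 0.69, and the mean difference was 0.54 ± 0.26 (moderated SE, n = 2 against 1). Its other probe was not above background on any array. NTN4, a netrin that binds laminin, read 7.19, 7.35 and 6.78, again with both siRNA arrays above control, by 0.41 and 0.56. Its second probe, not above background in the control, gave 0.04 and 0.40.

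UNC5A, a dependence receptor that can trigger cell death without netrin, read 5.61 with siTARBP2-1 and 6.24 with siTARBP2-2. In the control it read 4.82, not above background. Its single probe gave a mean difference of 1.11 ± 0.31 (moderated SE, n = 2 against 1) that rests on this dim control reading, and at least 1.55-fold as a bound. The limma p was 0.00823 before adjustment (adjusted p = 0.99991), and the siTARBP2-2 difference ran from 0.65 to 1.42 over the 6 settings that kept the gene. UNC5B differed from control by 0.39 with siTARBP2-1 and -0.03 with siTARBP2-2, and its second probe by 0.26 and -0.01. UNC5C was above background only with siTARBP2-2, at least 1.29-fold higher. UNC5D and DCC were not above background on any array.

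Compared directly, without the control, 4 members were higher by 1.5-fold with siTARBP2-1 than with siTARBP2-2 (SEMA4G, NRP1, EFNB2 and EPHA3), where 5.12% of all genes were. The other direction held 9 members (SEMA3G, SEMA4C, SEMA4D, SEMA6C, PLXNA2, PLXNA3, EFNA1, SLIT3 and UNC5A), where 5.01% of genes were. As bounds 3 of the 4 passed, without EPHA3, and 8 of the 9, without PLXNA2. Among the 33 members above background on every array the counts were 2 (NRP1 and EFNB2; 4.68% of such genes) and 6 (SEMA4C, SEMA4D, SEMA6C, PLXNA3, EFNA1 and SLIT3; 4.44%). EFNA1 had the widest gap of these, 2.36-fold, followed by SEMA6C with 1.98-fold. The split of 4 against 9 was 8 against 4 when array medians were set equal in place of quantile normalization. In that setting the median difference of all genes from control was also shifted, to 0.31 with siTARBP2-1 and -0.06 with siTARBP2-2.

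Different probes of a gene give a check within the same arrays, though some are annotated to different transcript records. This was so for EFNA4, EPHA8, EPHA10, NRP1, NRP2 and SEMA4F, whose probes may not read the same RNA. Of 10 members with more than 1 probe above background, EFNA1, EFNA4, EPHA8, NRP1, NTN4 and UNC5B kept 1 sign per siRNA over their probes. The other 4, EPHA10, NRP2, SEMA4F and SEMA4G, did not. The second NTN4 probe read 5.28 with siTARBP2-1 and 5.23, not above background, in the control. The lowest detected reading in the control was 5.29, so the sign of that probe with siTARBP2-1 does not hold as a bound. Sizes differed even where signs held, as for NRP1 with siTARBP2-2 (-1.22 and -0.29) and EFNA1 (1.38 and 0.84).

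**Figure D4:**
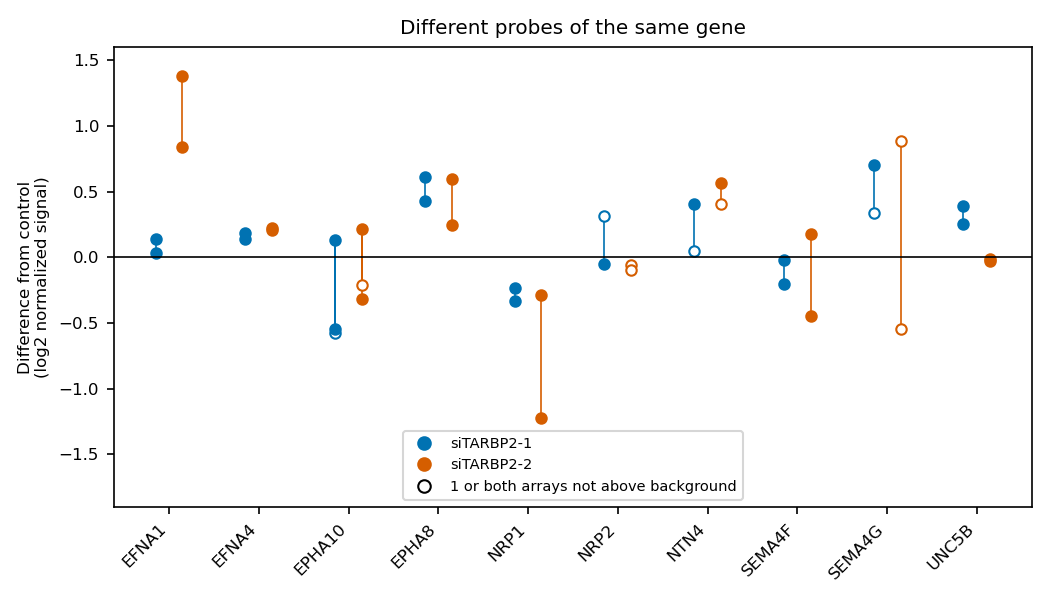
Difference from control (vertical axis, log2 normalized signal) at each probe above background on at least 1 array, for the 10 members with more than 1 such probe, with siTARBP2-1 in blue and siTARBP2-2 in orange. Lines join probes of the same gene and open points rest on a signal not above background; the probes of SEMA4G span -0.54 to 0.88 with siTARBP2-2.

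The remaining 23 members were not above background on any array at their brightest probe. They were SEMA3B, SEMA3D, SEMA5A, SEMA5B, SEMA6D and SEMA7A, the plexins PLXNA4, PLXNB3 and PLXNC1, the ephrins EFNA2, EFNA3 and EFNA5, the receptors EPHA1, EPHA5, EPHA7, EPHB3 and EPHB6, and SLIT1, ROBO4, NTN3, NTN5, UNC5D and DCC. The detection limit fell between SEMA3F, just inside with a lowest detection p of 0.00519, and SEMA7A, just outside with 0.01169.

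Downstream of the receptors, 105 genes in 6 lists of effectors and related guidance molecules were described, of which 78 were tested. With siTARBP2-1 1 of the 78 was higher by 1.5-fold (1.28%, beside 1.26% of all genes) and 0 were lower (1.36% of all genes). With siTARBP2-2 0 were higher (5.27% of all genes) and 6 were lower (7.69%, beside 4.88% of all genes). The medians were -0.03 and 0.05. None of the 78 passed limma over all genes, and 1, MICAL1, had an unadjusted p under 0.05.

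Of 16 semaphorin and plexin effectors tested, 0 were higher and 2 lower with siTARBP2-2. MICAL1, an enzyme that oxidises actin after semaphorin signals, read 5.71 with siTARBP2-1, 5.09 (not above background) with siTARBP2-2 and 6.22 in the control. DPYSL2, also known as CRMP2, a microtubule partner in semaphorin signalling, read 11.40, 10.78 and 11.50. ARHGEF11, an exchange factor that binds B-type plexins, was higher on both arrays within 1.5-fold, by 0.58 and 0.36, and GSK3B differed by -0.45 and -0.11.

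Among 20 Eph and ephrin effectors, ADAM10, the protease that sheds ephrins, read 8.84 with siTARBP2-1, 7.99 with siTARBP2-2 and 8.88 in the control. GRIP1, a scaffold that binds ephrin-B tails, was not above background with siTARBP2-2, with a bound of -0.62. ITSN1 differed by -0.20 and -0.55 and ADAM17 by 0.18 and 0.45. Of 13 Slit and Robo effectors, CDC42, a small GTPase of the cytoskeleton, was 0.69 above control with siTARBP2-1 and 0.44 with siTARBP2-2. CDC42 was the 1 effector past 1.5-fold with siTARBP2-1, and with the mean of probes 0 were. RHOA read 13.09, 12.33 and 13.04, so only the siTARBP2-2 array was low, and SRGAP1, a GTPase activator that binds ROBO1, was not above background on the same array, where its bound of -0.54 fell short of 1.5-fold. SRGAP3 differed by 0.09 and 0.56.

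No member of the other 3 lists passed 1.5-fold with either siRNA. Among 12 netrin receptor effectors the widest were TRIM9, a ligase that binds DCC (0.26 and 0.44), DAPK1, a kinase of UNC5-linked cell death (0.18 and 0.33), MAGED1 (-0.28 and -0.18) and SIAH1 (-0.08 and -0.29). Of the 9 tested genes from other guidance families they were RGMB, a ligand of neogenin (0.38 and 0.31), NRCAM (0.09 and 0.46), PTPRD (-0.40 and 0.03) and PTPRF (0.08 and 0.28).

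In the authors' deposited table of log fold changes, whose log base its header does not give, 1036 of 39747 accessions (2.61%) carry the class of up-regulated, all with a value of at least 0.200. Of 85 accessions that probes of the 68 members match in that table, 4 carry it (4.71%). They belong to EFNA1, UNC5A, NTN1 and SEMA4B, with values of 0.34, 0.26, 0.22 and 0.21 in the authors' deposited table. The lowest member value there was -0.60, for NRP1.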

How the data were processed

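RNA of 3 samples of 293T cells (siTARBP2-1, siTARBP2-2 and siControl) was read on Illumina arrays. The deposited non-normalized table gives a signal intensity and a detection p-value per probe and array, per the file headers; each detection column follows the signal column of its array. The deposited series matrix holds the authors' processed intensity values, which share 1 distribution. Per the submitters' processing notes lumi was used; its version and settings are not given in the sources used here. A further deposited table gives the authors' log fold change per accession (taken as log2 here, since the base is not stated) and a class score of 0 or 1, per the file headers. There were 0 other columns of samples.

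Background correction, quantile normalization and the log2 step were done by neqc (limma 3.58.1, R 4.3.3; offset 16, background from the detection p-values). A small offset stretches the differences of dim probes, and a shift shared by most genes is lost in quantile normalization. Probes were named from the platform annotation (30113 with 1 symbol, 8 with several, 17202 not listed), and chromosomes came from the RefSeq table of GRCh38.p14. The brightest probe of a gene was used and kept if its detection p was under 0.01 on any array, which left 11768 genes. Each siRNA was set against control, and against the other siRNA, by 1.5-fold with no test. Knockdown (2 arrays) against control (1 array) was tested with lmFit and eBayes over all 11768 genes. Benjamini-Hochberg adjustment was at 0.05, with 1 residual and 6.78 prior degrees of freedom. The fit was also run on data simulated from its own variance prior, with the same effect in both siRNA arrays. Such data meet the assumptions of the fit, so that run does not check them for these arrays. Each SE is the moderated one. The number of arrays limits all precision.

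The members, lists and rules were chosen with earlier results of these data known. With values per array are named the members past 1.5-fold in any comparison and those of families with fewer than 3 members above background, 25 in all, and up to 4 effectors per list by mean difference. SEMA3E and further members given by their differences complete the account of all members. The single genes of 1 effector list are not reported here.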

Additional observations from a re-analysis of the deposited data

How the results depend on the processing

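No paired analysis was possible because there was 1 control array and the labels give no pairing. The alternatives were no background correction, an offset of 50, equal array medians, the authors' processed values, no detection filter, detection on all 3 arrays, the mean of probes, a trended and robust prior, and leaving out either siRNA array; the cause of a change was not tested unless stated. Over 9 settings 0 members passed limma. Members higher by 1.5-fold with siTARBP2-1 (6) numbered 0 without background correction, 0 with the offset of 50, 0 with the authors' processed values, 1 with detection on all 3 arrays, where fewer genes are tested, and 10 with equal medians. Those higher with siTARBP2-2 (8) numbered 3, 3, 3, 3 and 5 in the same order. Members higher with siTARBP2-1 than with siTARBP2-2 (4) numbered 2 without background correction, 2 with detection on all arrays, 2 with the mean of probes and 8 with equal medians, and those lower (9) numbered 4 without background correction, 4 with the offset of 50, 4 with the authors' processed values and 4 with equal medians. Effector genes past 1.5-fold with siTARBP2-1 (1) numbered 7 with equal medians and 0 with the mean of probes, and 2 without the other siRNA array; with siTARBP2-2 (6) they numbered 3 without background correction, 3 with the authors' processed values and 3 with detection on all arrays. Equal medians put the median of all genes at 0.31 with siTARBP2-1 and -0.06 with siTARBP2-2; relative to it the members' medians there were -0.00 and 0.29. The members' median with siTARBP2-2 ran from 0.16 (no detection filter) to 0.33 (without the siTARBP2-1 array).

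Of 190 mean differences of the 25 named members under the alternatives other than leaving out an array, 188 kept their direction. With equal medians PLXNA3 was at 0.0482 and EFNB2 at 0.0379, both below the median of all genes there, 0.12. When either siRNA array was left out and the rest normalized anew, the difference ran from -0.44 to 0.33 for SEMA3G, -0.27 to 0.45 for SEMA4C, -0.39 to 0.41 for SEMA4D and -0.49 to 0.49 for SEMA6C. It ran from -0.47 to 0.36 for PLXNA3, -0.0893 to 0.33 for NRP2, -0.45 to 0.28 for EFNB2, -0.25 to 0.35 for EPHA3, -0.00547 to 0.0717 for EPHB4 and -0.29 to 0.31 for SLIT3. Without the siTARBP2-1 array the brightest SEMA4G probe was the other one, at 0.82, against a control reading not above background. EFNA1 was at 0.14 without the siTARBP2-2 array and 1.37 without the siTARBP2-1 array, and NRP1 at -0.33 and -1.22. Signal over background limits SEMA3F, EPHA6, PLXNA2, PLXND1, SEMA4A and UNC5A, whose control readings were not above background.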
